A study of Rattus norvegicus with 24 samples.

Results

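The receptors, enzyme and channel through which autonomic nerves act on the lower urinary tract were followed in the rat urethra by mRNAseq. The set holds 9 of the 32883 genes in the table of normalized gene counts: the muscarinic receptors Chrm2 and Chrm3, the alpha-1 adrenoceptors Adra1a, Adra1b and Adra1d, the beta adrenoceptor Adrb3, the ATP-gated channel P2rx1, the neuronal nitric oxide synthase Nos1 and the BK potassium channel Kcnma1. They were chosen by gene symbol, and each symbol stood on 1 line of the table. A gene was counted as near the detection floor in a library with 3 reads or fewer.

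Parasympathetic nerves of the lower tract release acetylcholine, which contracts bladder smooth muscle through M3 receptors, and M2 receptors oppose relaxation by lowering cyclic AMP. Sympathetic noradrenaline keeps the urethra closed through alpha-1 adrenoceptors, while beta-3 adrenoceptors relax the bladder. ATP released with acetylcholine opens P2X1 channels on smooth muscle. Nitric oxide made by Nos1 in nerves relaxes the urethra through cyclic GMP, and Nos1 is also found at the membrane of striated fibres. The BK channel lets potassium out when calcium rises, which damps the excitability of smooth muscle.

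The urethras came from virgin female Sprague-Dawley rats, 12 weeks old, and all of them had undergone simulated vaginal delivery (SVD), a crush of the pudendal nerves combined with vaginal distension. One group received saline (genotype WT) through the aorta 1 hour after SVD. MABs-allo rats (WT) received 500000 allogeneic mesoangioblasts, which are vessel-associated progenitors isolated from skeletal muscle and marked with eGFP and firefly luciferase, and MABs-allo-VEGF rats (VEGF OE) received cells that also carried a lentiviral vector for VEGF165 and a truncated CD34. Whole urethras were taken 3d or 7d after SVD, with 4 samples in each of 6 groups, and MABs-allo-VEGF replicates 6 and 7 at 7d are labelled as recovered. No group without SVD was analysed here, and every level below is therefore that of an injured urethra.

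The 24 libraries held 2170695 to 10166052 reads on genes, with a median of 5246800, and 1 read was worth 1.67 to 9.23 normalized counts. MABs-allo libraries at 3d were the shallowest, at 2170695 to 4491900 reads, so that their floor of 3 reads averaged 20.4 normalized counts against 10.8 in saline at 3d. Smooth muscle, striated muscle and urothelium markers were present in every library. Saline replicate 8 at 3d stood low in smooth muscle, with a sum over 10 markers of 27241 against 71893 to 386885 in the others, and in urothelium, with a sum over 7 markers of 780 against 1442 to 55527. The libraries saline replicate 6 and MABs-allo-VEGF replicate 4 at 3d stood apart from their groups. Reads on the 33 genes of signal recognition particle RNA made up 0.00434% of the former, against at most 0.000133% in all other saline libraries. They made up 4.95e-05% of the latter, against 0.00309% to 0.0211% in the other MABs-allo-VEGF libraries at 3d and 0.00216% to 0.0861% in MABs-allo. Tests were run with and without both libraries, and calls that changed are given beside the result.

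**Figure D1:**
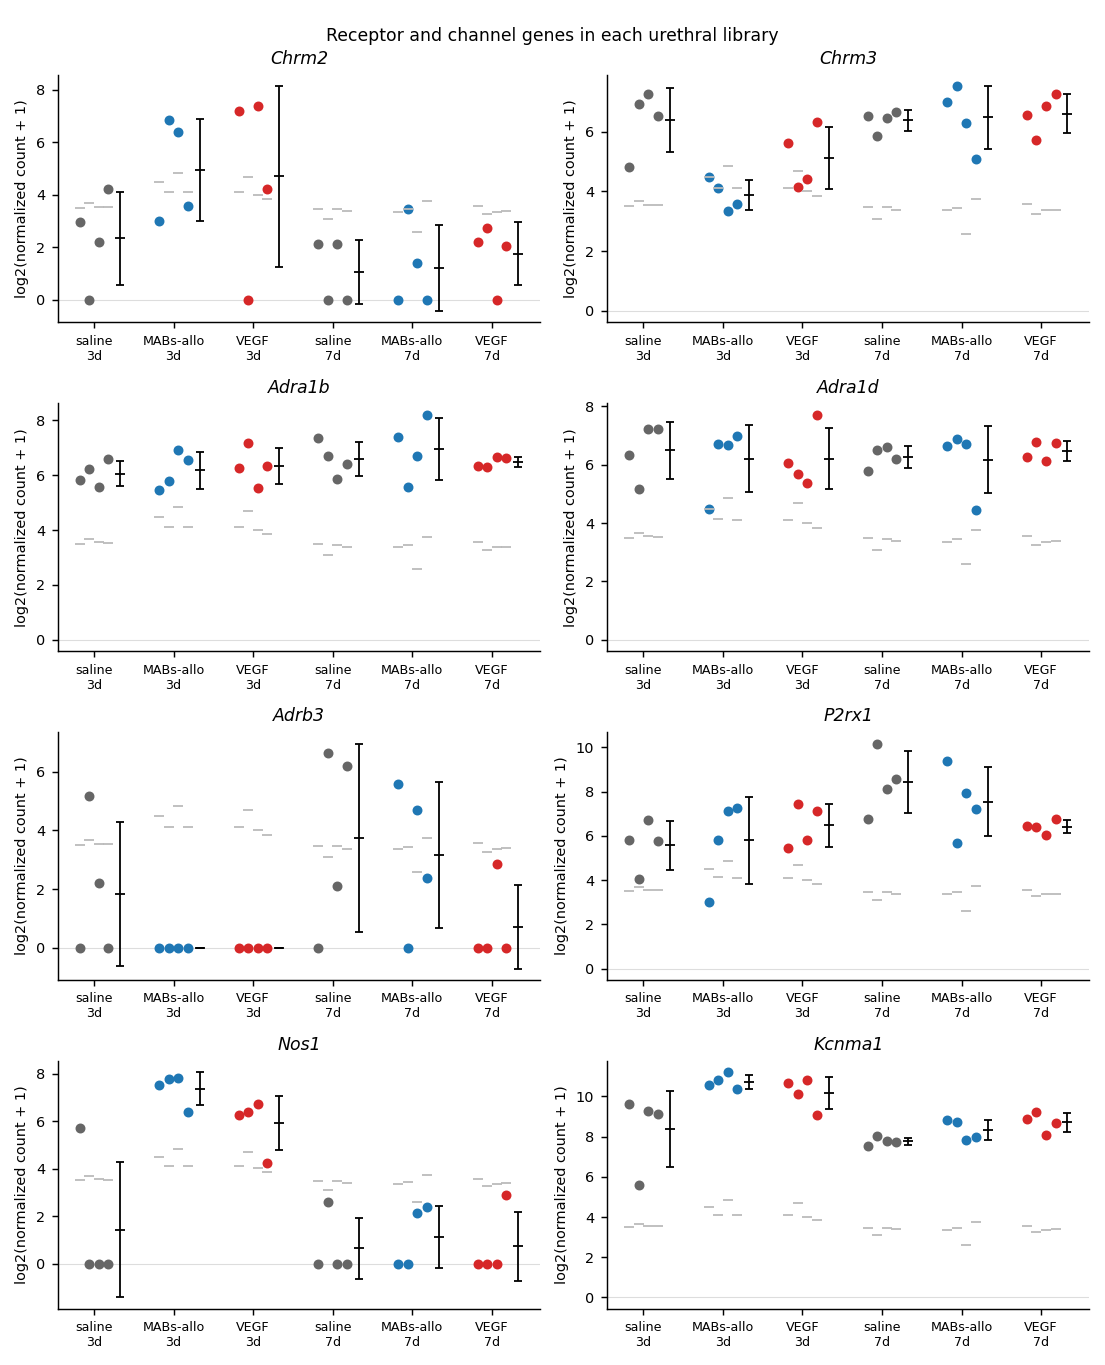
Normalized gene counts of the 8 members that passed the filter, as log2(normalized count + 1), in each library of the 6 groups (VEGF stands for MABs-allo-VEGF, and replicates run from left to right in the order of their numbers). Dots are libraries, the bar beside them is the mean and SD on this scale (n = 4), and grey dashes mark the value of 3 reads in each library. Nos1 dots lie above the floor in all 8 libraries of cell-treated rats at 3d, and Chrm3 dots at or below it in the 4 MABs-allo libraries at 3d.

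Adra1a was at the floor throughout, with 1 read in 24 libraries, in MABs-allo-VEGF replicate 7 at 7d, and was not tested. Adrb3 had more than 3 reads in 5 libraries, Chrm2 in 6 and Nos1 in 9. Adra1b and Kcnma1 passed the floor in all 24 libraries, Adra1d and P2rx1 in 23 and Chrm3 in 19. The level of a gene in whole urethra depends on both the number of cells that hold its RNA and the RNA in each cell. Fewer cells of a type and less RNA per cell cannot be told apart in these data.

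The tests took in 8 of the 9 members. Log2(normalized count + 1) was compared with limma over 16287 genes, and a gene was called where its log2 fold change passed 1 in either direction with an adjusted p under 0.05. Between MABs-allo and saline at 3d, 3 of the 8 were called, against 12.3% of all genes tested: Nos1 and Kcnma1 rose and Chrm3 fell. DESeq2 and edgeR called 3 as well, against 11.8% and 8.24% of all genes. A fit of only the 8 libraries compared called 0 of 8, and 0.0675% of all genes. Between MABs-allo-VEGF and saline at 3d limma called 0 of 8, with 3 at an unadjusted p below 0.05, and DESeq2 and edgeR called 0 as well. Across all genes limma called 0.0307% in that comparison, DESeq2 2.44% and edgeR 0.00614%. An unadjusted limma p below 0.05 was held by 2923 of all 16287 genes there, and by 5122 in MABs-allo against saline at 3d. Without the 2 libraries that stood apart, Nos1, Kcnma1 and Chrm3 were called for both treatments, 3 of 8 each, against 18.1% of all genes in the MABs-allo comparison and 13.6% in that of MABs-allo-VEGF. The other 5 members tested were not called for either treatment with or without those libraries. Of the saline libraries at 3d, replicate 6 had the highest Nos1 and Kcnma1 and the lowest Chrm3. MABs-allo-VEGF replicate 4 had the lowest Nos1 and Kcnma1 and the highest Chrm3 of its group. Leaving them out therefore widens these differences, and the calls so gained are not independent support. Both comparisons use the same saline libraries. The median log2 fold change of the 8 members was 0.17 in MABs-allo, beside 0.07 over all genes, and 0.58 in MABs-allo-VEGF, beside 0.04. Differences between days are given with each gene below.

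**Figure D2:**
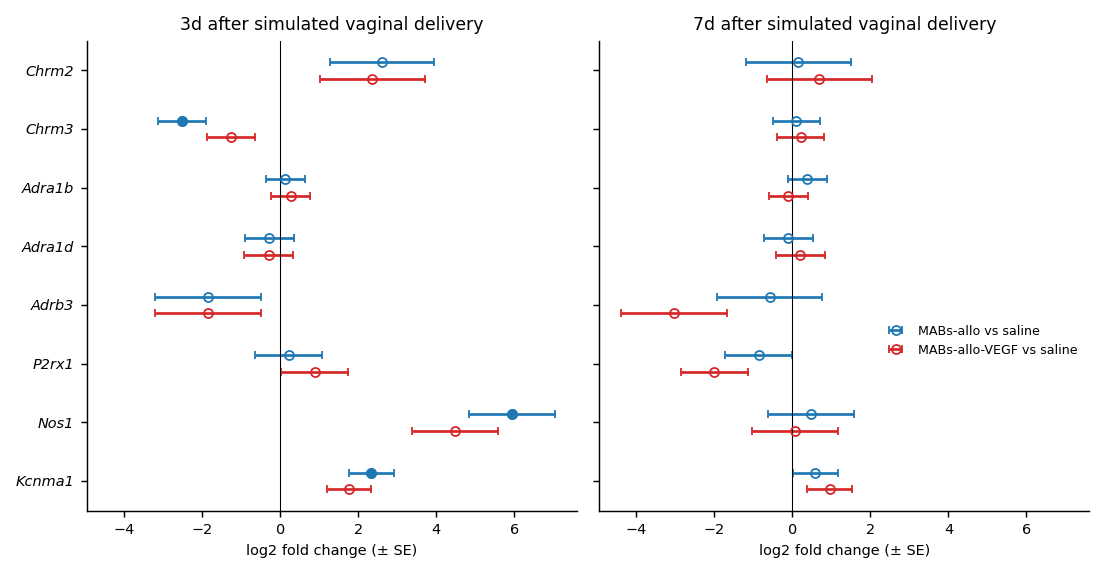
Log2 fold change with its SE (limma, 24 libraries) of 8 members for MABs-allo (blue) and MABs-allo-VEGF (red) against saline, at 3d on the left and 7d on the right. Filled circles mark genes called. At 3d Nos1 and Kcnma1 lie to the right of 0 and Chrm3 to the left for both treatments, filled for MABs-allo only, and at 7d no circle is filled.

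The promoters of these 3 genes are shown because their transcripts carried the calls at 3d. The sequences are those of RefSeq on GRCr8, a later build than that of the counts, from 250 bases before to 50 after each start. They were listed for 7 of the 9 members, and none was at hand for Adra1a and Adrb3. Capitals mark GGGCGG, the core of an Sp1 site, and TGACG, a part of the cyclic AMP response element, on either strand.
Nos1, chr12:44371788-44372087 (− strand): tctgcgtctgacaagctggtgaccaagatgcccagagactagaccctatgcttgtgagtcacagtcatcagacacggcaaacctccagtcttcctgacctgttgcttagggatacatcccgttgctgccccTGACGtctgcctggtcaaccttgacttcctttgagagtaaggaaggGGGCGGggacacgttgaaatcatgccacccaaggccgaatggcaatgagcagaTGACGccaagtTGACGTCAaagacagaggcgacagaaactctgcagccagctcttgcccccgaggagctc
Kcnma1, chr15:351675-351974 (+ strand): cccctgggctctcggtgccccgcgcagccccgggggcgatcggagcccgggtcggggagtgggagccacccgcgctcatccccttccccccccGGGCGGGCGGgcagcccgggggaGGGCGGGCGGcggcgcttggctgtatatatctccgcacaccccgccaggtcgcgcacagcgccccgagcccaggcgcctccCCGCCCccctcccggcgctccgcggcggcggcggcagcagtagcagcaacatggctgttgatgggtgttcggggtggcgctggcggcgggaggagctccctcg
Chrm3, chr17:64696677-64696976 (+ strand): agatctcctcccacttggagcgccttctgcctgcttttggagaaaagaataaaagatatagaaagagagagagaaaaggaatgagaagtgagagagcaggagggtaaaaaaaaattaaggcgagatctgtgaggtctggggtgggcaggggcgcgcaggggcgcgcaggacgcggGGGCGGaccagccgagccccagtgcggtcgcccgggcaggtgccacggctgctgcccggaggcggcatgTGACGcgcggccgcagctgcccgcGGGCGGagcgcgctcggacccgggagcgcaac
Nos1 held 4 matches to TGACG, of which 2 overlap on opposite strands just before the start, and 1 to GGGCGG. Kcnma1 held 5 matches to GGGCGG, in 2 overlapping pairs and 1 alone, and 0 to TGACG, while Chrm3 held 2 matches to GGGCGG and 1 to TGACG. Of 33469 promoters of this length, 33.1% held GGGCGG and 21.2% held TGACG at least once. The E-box letters CANNTG, found in 72.1% of promoters, occurred 4 times in Chrm3, once in Nos1 and in no other member listed. The TATA box letters TATAAA (14.2% of promoters) and the CArG box of smooth muscle genes (1.64%) were in none of these 7 windows.

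Nos1 makes nitric oxide in nerves and striated muscle. Its normalized counts in saline at 3d were 51.7 in replicate 6 and 0 in replicates 8, 9 and 10. In MABs-allo at 3d they were 185, 219, 222 and 81.4 in replicates 1 to 4, and in MABs-allo-VEGF 75.7, 83.3, 106 and 17.8. All MABs-allo values were thus above every saline value, whereas MABs-allo-VEGF replicate 4 lay below saline replicate 6. The reads behind these values were 15 to 40 in MABs-allo, 4 to 21 in MABs-allo-VEGF and 15 in saline replicate 6. The log2 fold change against saline was 5.94 ± 1.10 (SE, limma adjusted p = 0.0059) in MABs-allo and 4.48 ± 1.10 (adjusted p = 0.0753) in MABs-allo-VEGF. Without the 2 libraries that stood apart it was 7.37 and 6.47, and both were called. The mean in saline was 12.9 ± 25.8 (SD, n = 4). Fitted changes from a group with libraries at 0 depend on the added count of 1. On the linear scale, with the 3 saline libraries at 0 set at their floor of 3 reads and replicate 6 as measured, the saline mean was at most 21.2. The mean of MABs-allo (177 ± 65.7, SD, n = 4) was then at least 8.34-fold higher and that of MABs-allo-VEGF (70.7 ± 37.5) at least 3.34-fold higher. These are bounds for the libraries at 0 alone. Counting error and spread in saline replicate 6 and in the cell-treated libraries are not covered. The libraries with Nos1 above the floor were also those with the highest share of signal recognition particle RNA, except MABs-allo-VEGF replicate 4, which had 4 Nos1 reads. The part of that RNA in the result was not tested.

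At 7d Nos1 had at most 2 reads in any of the 12 libraries. Summed over libraries, 105 reads at 3d against 3 at 7d in MABs-allo gave a ratio of 83.2 after scaling for depth (exact 95% interval 27.7 to 410.0, for counting error only). The same ratio was 42.6 (11.2 to 362) in MABs-allo-VEGF, from 49 and 2 reads. Both differences were called (log2 differences of 6.25 ± 1.10 and 5.19 ± 1.10, SE, limma adjusted p = 0.00031 and 0.0021). The order of the group means ran from MABs-allo to MABs-allo-VEGF and saline at 3d, and then to the 3 groups of 7d, which lay at or under the floor and were not ordered. The place of saline at 3d rested on replicate 6 alone. Its log2 difference from saline at 7d was 0.78 ± 1.10 (SE, limma adjusted p = 0.76) and was not called. The 2 cell-treated groups of 3d differed by -1.46 ± 1.10 on the log2 scale (adjusted p = 0.87). Markers of peripheral neurons did not separate the groups at 3d, where the sum over 12 genes was 4414 to 7709 in saline, 6194 to 12702 in MABs-allo and 2000 to 13712 in MABs-allo-VEGF. The sums of 7 striated muscle markers overlapped too, at 38823 to 179813, 108717 to 398898 and 96020 to 219020 in the same order. Their medians were 83672.5 in saline, 226068 in MABs-allo and 144538 in MABs-allo-VEGF. In MABs-allo 2 of the 7 rose, beside 12.3% of all genes called. Sums of interstitial and Schwann cell markers had lower medians in both cell-treated groups than in saline at 3d. The sum of 6 interstitial cell and fibroblast markers was 261768 to 389838 in saline at 3d and 39370 to 207568 in MABs-allo, without overlap. In MABs-allo-VEGF it was 74177 to 422267, which overlapped with both. The matrix proteoglycans Dcn and Lum were the 2 of these 6 that fell in MABs-allo, beside 12.3% of all genes called (log2 fold changes of -1.29 and -1.69, limma adjusted p = 0.0426 and 0.0218). Kit and Ano1, which mark interstitial cells of Cajal type, were at -0.15 and 0.12 and not called. The sum of 6 Schwann cell markers was 8880 to 36166 in saline, 3202 to 9257 in MABs-allo and 6088 to 18202 in MABs-allo-VEGF, with overlap between the groups. Limma called 0 of the 6 for MABs-allo, beside 12.3% of all genes. An unadjusted p below 0.05 was held by 4 of the 6, beside 5122 of all 16287 genes. The part of these cell types in the differences of Nos1, Kcnma1 and Chrm3 at 3d was not tested.

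Among the other genes of nitric oxide and cyclic GMP signalling, 6 were tested and 1 was called in MABs-allo at 3d, beside 12.3% of all genes. This was Pde5a, the phosphodiesterase that degrades cyclic GMP, at 1062 ± 528 normalized counts (SD, n = 4) against 107 ± 66.7 in saline (log2 fold change 3.56 ± 0.77, SE, limma adjusted p = 0.0079). In MABs-allo-VEGF it was at 638 ± 463 (2.51 ± 0.77, adjusted p = 0.11), and it was called without the 2 libraries that stood apart. In MABs-allo-VEGF with all libraries, limma and edgeR called 0 of these 6 genes. DESeq2 called 1, beside 2.44% of all genes. The guanylate cyclase subunit Gucy1a1, which nitric oxide activates, was at 1991 ± 747, 2176 ± 321 and 2074 ± 285 in saline, MABs-allo and MABs-allo-VEGF. The G-kinase partner Mrvi1 was at 4083 ± 1675, 4918 ± 1415 and 3480 ± 1179. Neither was called, and the inducible synthase Nos2 was at 0 in all 24 libraries.

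Kcnma1 encodes the pore of the BK channel. In saline at 3d its normalized counts were 775, 47.0, 618 and 549 in replicates 6, 8, 9 and 10. They were 1519, 1778, 2336 and 1313 in MABs-allo replicates 1 to 4, and 1622, 1100, 1811 and 530 in MABs-allo-VEGF. All MABs-allo values exceeded all saline values, and so did those of MABs-allo-VEGF except replicate 4. The log2 fold change was 2.34 ± 0.57 (SE, limma adjusted p = 0.0131) in MABs-allo and 1.77 ± 0.57 (adjusted p = 0.12) in MABs-allo-VEGF. Without the 2 libraries that stood apart it was 2.74 and 2.54, and both were called. The lowest value, that of saline replicate 8, came from the library lowest in smooth muscle markers. Without that library the log2 fold change was 1.40 in MABs-allo, still called (adjusted p = 0.0390), and 0.84 in MABs-allo-VEGF (adjusted p = 0.47). The summed smooth muscle markers overlapped between groups at 3d, at 27241 to 241241 in saline, 100637 to 183275 in MABs-allo and 71893 to 162596 in MABs-allo-VEGF. In MABs-allo 1 of 10 was called, beside 12.3% of all genes. That 1 was Synpo2, an actin-binding protein of smooth and striated muscle, with a log2 fold change of 3.56 ± 0.84 (adjusted p = 0.0117).

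At 7d Kcnma1 was lowest in saline, at 186, 256, 218 and 211 in replicates 1, 2, 3 and 5. It was 452, 424, 230 and 253 in MABs-allo replicates 7.2, 9, 11 and 13, and 464, 593, 273 and 413 in MABs-allo-VEGF replicates 6, 7, 11 and 12. Every MABs-allo-VEGF value was above every saline value, and MABs-allo overlapped with both. The log2 fold changes against saline of 0.95 ± 0.57 in MABs-allo-VEGF and 0.59 ± 0.57 in MABs-allo (SE, limma adjusted p = 0.83 and 0.96) were not called. On the log2 scale the 3d level was above the 7d level by 2.38 ± 0.57 in MABs-allo (adjusted p = 0.0031), by 1.44 ± 0.57 in MABs-allo-VEGF (adjusted p = 0.0763) and by 0.63 ± 0.57 in saline (adjusted p = 0.60). The MABs-allo-VEGF difference was called by DESeq2 (1.54) and edgeR (1.41), and by limma without replicate 4 of 3d (1.81). The saline difference was called without replicate 8 of 3d, at 1.56. In decreasing order the means were 1736 ± 443 (SD, n = 4) in MABs-allo, 1266 ± 575 in MABs-allo-VEGF and 497 ± 315 in saline at 3d, then 436 ± 132 in MABs-allo-VEGF, 340 ± 114 in MABs-allo and 218 ± 29.1 in saline at 7d. The highest 2 of these means did not differ beyond their spread, nor did saline at 3d and both cell-treated groups at 7d.

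Of 11 other genes of BK channel function and calcium release tested at 3d, 4 rose and 0 fell in MABs-allo, beside 12.3% of all genes called, with a median log2 fold change of 1.78 beside 0.07 over all genes. They were Itpr1, the IP3 receptor of the calcium store (800 ± 383 in saline against 2626 ± 1044, SD, n = 4), Cacna1c, the pore of the L-type calcium channel (234 ± 104 against 616 ± 187), its beta subunit Cacnb2 (6.10 ± 5.87 against 79.0 ± 46.2) and Jph2, which tethers the store to the cell membrane (66.3 ± 128 against 331 ± 142). Kcnj8, a subunit of the ATP-sensitive potassium channel, was at 796 ± 271 in saline and 416 ± 130 in MABs-allo, short of the fold threshold at a log2 fold change of -0.93 ± 0.31 (SE, limma adjusted p = 0.0421). Jph2 in saline rested on replicate 6 with 258 normalized counts. In MABs-allo-VEGF limma, DESeq2 and edgeR called 0 of 11, and the median log2 fold change was 0.81. By limma 3 had an unadjusted p below 0.05, beside 2923 of all 16287 genes. When the 2 libraries that stood apart were left out, 5 rose in MABs-allo and 4 in MABs-allo-VEGF, and Kcnj8 fell in both, beside 18.1% and 13.6% of all genes called.

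Chrm3, the receptor that couples acetylcholine to calcium release, had 27.5, 122, 154 and 91.5 normalized counts in saline replicates 6, 8, 9 and 10 at 3d. It had 21.3, 16.4, 9.23 and 10.9 in MABs-allo replicates 1 to 4, and 48.7, 16.7, 20.2 and 80.1 in MABs-allo-VEGF. The 4 MABs-allo values lay below every saline value and rested on 1 to 3 reads each, whereas MABs-allo-VEGF overlapped with saline. The log2 fold change was -2.51 ± 0.61 (SE, limma adjusted p = 0.0127) in MABs-allo and -1.26 ± 0.61 (adjusted p = 0.27) in MABs-allo-VEGF. The mean was 98.6 ± 53.7 in saline (SD, n = 4), and the 108 reads of saline against 9 in MABs-allo gave a depth-scaled ratio of 6.67 (exact 95% interval 3.38 to 15.0). Without the 2 libraries that stood apart, the changes were -3.03 and -2.19, and both were called. Without saline replicate 8 the MABs-allo call was lost, with an adjusted p of 0.0557 in a range of 0.00175 to 0.0557 over libraries left out in turn.

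At 7d Chrm3 was above the floor in all 12 libraries. It was at 91.3, 57.3, 87.1 and 101 in saline, 127, 185, 76.7 and 33.2 in MABs-allo and 94.3, 51.3, 115 and 151 in MABs-allo-VEGF. The 3 groups overlapped throughout, and the log2 fold changes against saline were 0.10 ± 0.61 and 0.22 ± 0.61 (SE, limma adjusted p = 1.0 and 0.99). In MABs-allo the reads of 7d stood to those of 3d in a depth-scaled ratio of 7.06 (exact 95% interval 3.62 to 15.7), with a log2 difference of 3d from 7d of -2.60 ± 0.61 (adjusted p = 0.0025). In saline the difference was 0.01 ± 0.61 (adjusted p = 1.0). The means of MABs-allo, MABs-allo-VEGF and saline at 7d (106 ± 65.6, 103 ± 41.7 and 84.1 ± 18.7, SD, n = 4) and of saline at 3d did not differ beyond their spread. At 3d they were followed by MABs-allo-VEGF (41.4 ± 29.5) and then MABs-allo (14.4 ± 5.51), which differed by 1.25 ± 0.61 on the log2 scale (adjusted p = 0.81).

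Chrm2, the more abundant muscarinic receptor protein of bladder muscle, was uneven within groups. At 3d it was at 6.89, 0, 3.57 and 17.6 normalized counts in saline, 7.10, 115, 83.1 and 10.9 in MABs-allo and 146, 0, 166 and 17.8 in MABs-allo-VEGF, in order of replicate number. A pair of libraries in each cell-treated group, MABs-allo replicates 2 and 3 and MABs-allo-VEGF replicates 1 and 3, had 21, 9, 27 and 33 reads, and the rest, with at most 4, overlapped with saline. The log2 fold changes of 2.61 ± 1.34 and 2.36 ± 1.34 (SE, limma adjusted p = 0.19 and 0.37) were not called. At 7d each of the 12 libraries had 3 reads or fewer. The reads of 3d stood to those of 7d in a depth-scaled ratio of 19.6 in MABs-allo (exact 95% interval 6.98 to 76.2) and 27.8 in MABs-allo-VEGF (10.4 to 105). On the log2 scale the differences were 3.74 ± 1.34 (SE, limma adjusted p = 0.0374) and 2.95 ± 1.34 (adjusted p = 0.12), and DESeq2 and edgeR called both. The limma call in MABs-allo held in 3 of 8 fits that each left out 1 library (adjusted p from 0.0214 to 0.11), and was lost without replicate 2 or 3 of 3d or without replicate 7.2, 11 or 13 of 7d. In MABs-allo-VEGF the difference was called without replicate 2 of 3d, at 4.52. The means of 54.0 ± 53.6 in MABs-allo and 82.6 ± 85.8 in MABs-allo-VEGF at 3d (SD, n = 4) did not differ beyond their spread, and the other 4 groups were at or near the floor.

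Of 10 other cholinergic genes 4 passed the filter, and limma called 0 of them for either treatment at 3d, with 0 at an unadjusted p below 0.05 and 0 called by DESeq2 and edgeR. Bche, which breaks down choline esters, was at 450 ± 213 in saline, 455 ± 230 in MABs-allo and 537 ± 75.5 in MABs-allo-VEGF (SD, n = 4). Slc5a7, the choline transporter of nerve endings, was at 93.2 ± 17.1, 140 ± 195 and 167 ± 122. The choline acetyltransferase Chat, the M1 receptor Chrm1 and the ganglionic nicotinic subunit Chrna3 had 0 reads in all 24 libraries.

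M1 and M3 receptors and alpha-1 adrenoceptors share the Gq pathway, and 21 genes of G protein coupling were tested. In MABs-allo at 3d 6 rose and 0 fell, beside 12.3% of all genes called, with a median log2 fold change of 0.58 beside 0.07 over all genes. Gnaq and Gna11, the alpha subunits of Gq and G11, were at 6.89 ± 13.8 and 76.7 ± 86.7 in saline against 57.6 ± 33.01 and 468 ± 258 in MABs-allo (SD, n = 4; log2 fold changes of 4.52 ± 1.01 and 3.21 ± 0.79, SE, limma adjusted p = 0.0088 and 0.0135). The effector Plcb3, which makes IP3, was at 168 ± 243 against 1004 ± 664, and Rgs2, which switches Gq off, at 202 ± 253 against 872 ± 401. In saline, replicate 6, one of the 2 libraries that stood apart, held the highest value of all 4 genes, at 27.5, 203, 530 and 575 normalized counts, and Gnaq was at 0 in the other 3 saline libraries, so that its fitted change depends on the added count of 1. In MABs-allo-VEGF these 4 genes were at 57.0 ± 32.0, 267 ± 209, 525 ± 365 and 629 ± 307. Limma, DESeq2 and edgeR called 0 of 21 there. By limma 9 had an unadjusted p below 0.05, beside 2923 of all 16287 genes. With the 2 libraries that stood apart left out, 9 rose in MABs-allo and 7 in MABs-allo-VEGF, and 0 fell in either, beside 18.1% and 13.6% of all genes called. The abundant Gnai2, through which M2 receptors act, was at 13251 ± 3008 in saline, 14152 ± 851 in MABs-allo and 16330 ± 4402 in MABs-allo-VEGF, and Rock1, the kinase that sensitises smooth muscle to calcium, at 9137 ± 3919, 12274 ± 757 and 11889 ± 2301. Neither was called.

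**Figure D3:**
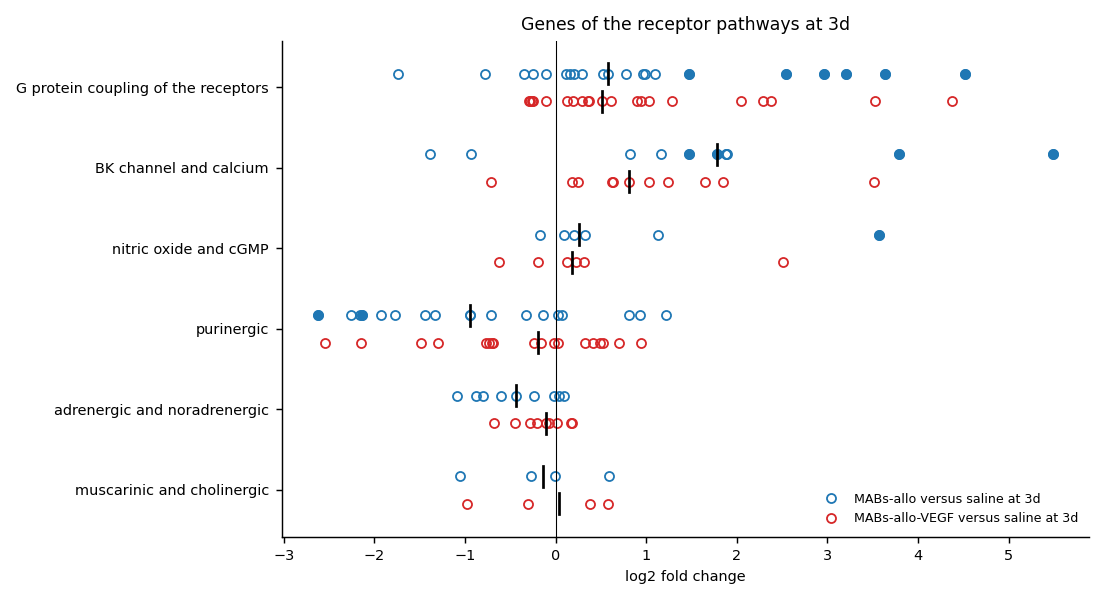
Log2 fold changes at 3d (limma, 24 libraries) of the tested genes in 6 pathway lists for MABs-allo (blue) and MABs-allo-VEGF (red) against saline. Each circle is a gene, filled where it was called, and the black bar is the median of the list. Filled circles lie to the right for the BK channel and G protein lists, with 1 for nitric oxide, and to the left for purinergic genes, all of them in MABs-allo.

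The alpha-1 adrenoceptors above the floor overlapped between all groups. Adra1b had 55.1, 74.5, 46.5 and 95.0 normalized counts in saline, 42.6, 54.7, 120 and 92.2 in MABs-allo and 75.7, 142, 45.4 and 80.1 in MABs-allo-VEGF at 3d. At 7d it had 162, 102, 56.9 and 84.9, 167, 46.4, 102 and 295, and 79.8, 77.02, 99.3 and 97.7 in the same order of groups. All 6 groups overlapped, and the highest value was MABs-allo replicate 13 at 7d. The log2 fold changes against saline were 0.13 ± 0.50 and 0.27 ± 0.50 at 3d and 0.38 ± 0.50 and -0.11 ± 0.50 at 7d (SE, limma adjusted p = 0.89, 0.82, 0.99 and 1.0). The group means ran from 67.8 ± 21.6 in saline at 3d to 153 ± 107 in MABs-allo at 7d (SD, n = 4), and no neighbours in that order differed beyond their spread.

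Adra1d had 79.2, 35.3, 150 and 148 normalized counts in saline at 3d, 21.3, 104, 102 and 125 in MABs-allo and 64.9, 50.01, 40.4 and 209 in MABs-allo-VEGF. MABs-allo-VEGF replicate 4, which stood apart in other respects too, held the highest value of all 24 libraries. At 7d the gene was at 54.1, 89.6, 97.1 and 72.3 in saline, 99.1, 116, 103 and 20.8 in MABs-allo and 76.2, 108, 68.3 and 107 in MABs-allo-VEGF. All groups overlapped. The 6 means lay between 78.3 ± 19.2 and 103 ± 55.9 (SD, n = 4), and the log2 fold changes against saline between -0.29 ± 0.63 and 0.20 ± 0.63 (SE).

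In the adrenergic list 9 of 12 genes were tested, and limma, DESeq2 and edgeR called 0 of them for either treatment at 3d. By limma 1 had an unadjusted p below 0.05 in MABs-allo and 0 in MABs-allo-VEGF, beside 5122 and 2923 of all 16287 genes. The alpha-2A receptor Adra2a was at 1174 ± 498 in saline, 672 ± 344 in MABs-allo and 912 ± 565 in MABs-allo-VEGF (SD, n = 4). The beta-1 receptor Adrb1 had 0 reads, and Th and Dbh, which make noradrenaline, had means of 2.93 and 0.617 normalized counts over all libraries.

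P2rx1, the channel that ATP opens on smooth muscle, was at 55.1, 15.7, 104 and 52.8 normalized counts in saline replicates 6, 8, 9 and 10 at 3d and at 108, 1150, 278 and 380 in replicates 1, 2, 3 and 5 at 7d. The days did not overlap in saline, though the nearest values were 103.6 and 108.2, where 1 read was worth 3.57 and 3.38. The log2 difference of 3d from 7d was -2.83 ± 0.85 (SE, limma adjusted p = 0.0619). In that comparison 3.19% of all genes and 0 of 8 members were called. An unadjusted p below 0.05 was held by 1 member, beside 3070 of all 16287 genes. DESeq2 and edgeR called P2rx1 lower at 3d, by -3.08 and -3.09. In limma it was called without replicate 1 of 7d (-3.37, adjusted p = 0.0413), and without the 2 libraries that stood apart it was at -2.90 (adjusted p = 0.16). In MABs-allo it was at 7.10, 54.7, 138 and 152 at 3d and 663, 49.7, 242 and 149 at 7d, and in MABs-allo-VEGF at 43.3, 175, 55.5 and 138 and then 87.1, 82.7, 65.2 and 107. In both the days overlapped, at -1.75 ± 0.85 and 0.05 ± 0.85 (adjusted p = 0.13 and 0.98).

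At 7d the 4 MABs-allo-VEGF values of P2rx1 all lay below the saline values, with a mean of 85.5 ± 17.3 against 479 ± 461 (SD, n = 4), and MABs-allo (276 ± 270) overlapped with both. The nearest values of MABs-allo-VEGF and saline were 107.2 and 108.2, in libraries where 1 read was worth 3.15 and 3.38. The log2 fold changes against saline were -1.997 ± 0.85 in MABs-allo-VEGF and -0.86 ± 0.85 in MABs-allo (SE, limma adjusted p = 0.75 and 0.96), and neither was called. The group means at 3d were 56.8 ± 36.1 in saline, 88.0 ± 69.0 in MABs-allo and 103 ± 63.9 in MABs-allo-VEGF, and these 3 and MABs-allo-VEGF at 7d did not differ beyond their spread. The change of treatment effect between days was 2.88 ± 1.21 for MABs-allo-VEGF (adjusted p = 0.56).

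Adrb3 had 0 reads in all 8 libraries of cell-treated rats at 3d, and in saline 9 reads in replicate 8, 1 in replicate 9 and 0 in the others. At 7d it was at 0, 99.6, 3.35 and 72.3 normalized counts in saline replicates 1, 2, 3 and 5. It was at 46.5, 0, 25.0 and 4.15 in MABs-allo replicates 7.2, 9, 11 and 13, and at 6.21 in MABs-allo-VEGF replicate 11 with 0 in replicates 6, 7 and 12. The gene was thus present in some urethras of a group and not detected in others. The mean of saline at 7d was 43.8 ± 49.9 (SD, n = 4), and its 64 reads against 2 in MABs-allo-VEGF gave a depth-scaled ratio of 30.8 (exact 95% interval 8.19 to 260.0) that rested on replicates 2 and 5. The fitted change was -3.03 ± 1.35 (SE, limma adjusted p = 0.76), and no difference between groups was called.

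The 4 libraries of 7d with more than 3 Adrb3 reads, saline replicates 2 and 5 and MABs-allo replicates 7.2 and 11, were those with the highest summed urothelium markers, at 55527, 41539, 38973 and 44748, where the other 20 reached at most 29522. They held 3 of the 4 highest P2rx1 values, and saline replicate 3, with a marker sum of 27724, held the other. Saline replicate 8 at 3d, with 9 Adrb3 reads, had the lowest marker sum. Upk2, a uroplakin of the urothelial surface, was among the 3 genes most like P2rx1, with a Pearson r of 0.77 over 24 libraries that share groups and differ in depth. By deviations from the group means the 3 were Card9 (0.82), Bin2 (0.80) and Trappc2l (0.78), and Upk2 was not among them. Upk2 was at 5651 ± 5036 in saline, 2761 ± 3187 in MABs-allo and 193 ± 102 in MABs-allo-VEGF at 7d (SD, n = 4), the same order as Adrb3 and P2rx1. The sums of all 7 urothelium markers overlapped between these groups. They were 17531 to 55527 in saline (median 34631), 11973 to 44748 in MABs-allo (31046) and 13071 to 27683 in MABs-allo-VEGF (24148). Whether the amount of urothelium in a sample took part in the differences of Adrb3 and P2rx1 was not tested.

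**Figure D4:**
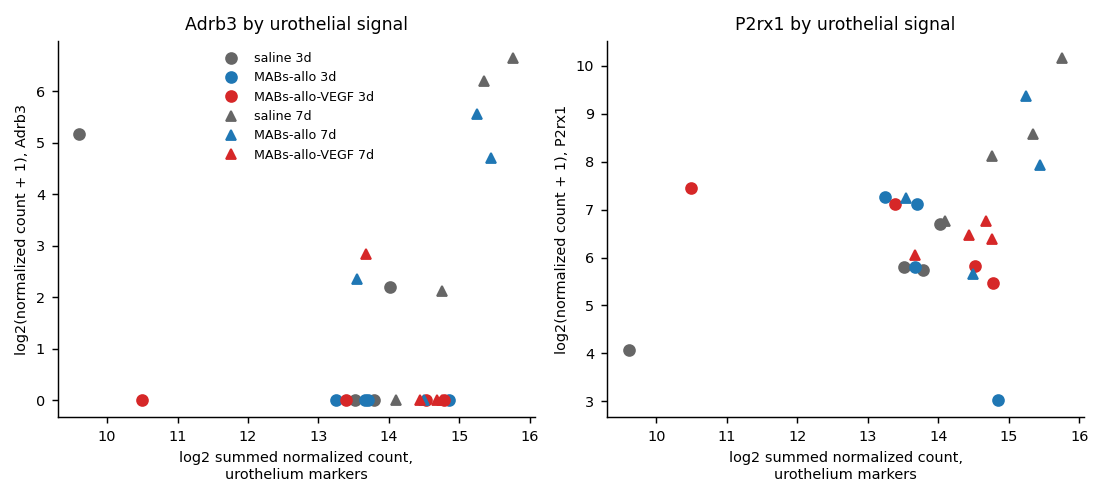
Levels of Adrb3 (left) and P2rx1 (right) as log2(normalized count + 1) against the log2 of the summed normalized counts of 7 urothelium markers, with 1 point per library, circles for 3d and triangles for 7d. The 4 libraries with the highest marker sums carry the 4 highest Adrb3 values of 7d, and saline replicate 8 at 3d, at the far left, is the exception with 35.3 normalized counts.

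Of the 18 other purinergic genes tested, 0 rose and 2 fell in MABs-allo at 3d, a share near the 12.3% of all genes called, with a median log2 fold change of -0.95 beside 0.07 over all genes. The 2 were Slc17a9, which loads ATP into vesicles (274 ± 150 in saline against 62.7 ± 39.3, SD, n = 4, log2 fold change -2.14 ± 0.53, SE, limma adjusted p = 0.0140), and the UDP receptor P2ry6 (81.9 ± 31.5 against 23.7 ± 20.4, -2.62 ± 0.89, adjusted p = 0.0491). In MABs-allo-VEGF limma, DESeq2 and edgeR called 0 of 18, and Slc17a9 was at 104 ± 79.5 and P2ry6 at 91.4 ± 59.6. By limma 4 of the 18 had an unadjusted p below 0.05, beside 2923 of all 16287 genes. When the 2 libraries that stood apart were left out, 2 fell for each treatment, Slc17a9 in both, and P2ry6 in neither. The ectonucleotidases Nt5e and Entpd2, which break ATP and its products down to adenosine, were at 1155 ± 447 and 845 ± 416 in saline, 997 ± 238 and 412 ± 80.4 in MABs-allo and 1109 ± 159 and 728 ± 373 in MABs-allo-VEGF.

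In the direct comparison of MABs-allo-VEGF with MABs-allo, limma called 0 of 8 members at 3d (0.00614% of all genes) and 0 of 8 at 7d (0%), with 0 at an unadjusted p below 0.05 on either day, and DESeq2 and edgeR called 0. At 7d 0 of 8 were called against saline for MABs-allo, with 0 at an unadjusted p below 0.05, and for MABs-allo-VEGF, with 2, among 0% of all genes in each case, and DESeq2 and edgeR called 0. Between 3d and 7d, 4 of 8 were called in MABs-allo (Chrm2, Nos1 and Kcnma1 higher at 3d and Chrm3 lower), beside 23.0% of all genes, and 1 of 8 in MABs-allo-VEGF (Nos1 higher), beside 15.3%. Without MABs-allo-VEGF replicate 4 of 3d, Kcnma1 (higher) and Chrm3 (lower) were called there too, beside 3216 of all 16287 genes. The change of the treatment effect between days was called in 0 of 8 members by limma, DESeq2 and edgeR, and in 0% of all genes by limma. By limma 3 members had an unadjusted p below 0.05 for MABs-allo and 2 for the VEGF-transduced cells, beside 2212 and 1341 of all 16287 genes. Without the 2 libraries that stood apart, Nos1 and Chrm3 were called for MABs-allo and Nos1 for MABs-allo-VEGF, beside 3.55% and 3.59% of all genes. The 2 recovered and 2 other MABs-allo-VEGF urethras at 7d differed in 0 of 8 members by limma, with 0 at an unadjusted p below 0.05 and 0 by DESeq2 and edgeR, among 0.0184% of all genes.

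The members also differed in which genes were most like them over the 24 libraries, measured by Pearson's r as a description. Nos1 was most like the growth factor receptor Egfr (r = 0.94), Setd3 (0.93) and Dnajb14 (0.93), and Kcnma1 like Rundc1 (0.97), Vamp8 (0.96) and Lpp (0.96). For deviations from the group means, Kcnma1 was most like the ryanodine receptor Ryr3 (0.96), Synpo2 (0.95) and Vamp8 (0.95). Its median r to the 10 smooth muscle markers was 0.70 by deviations and -0.0056 over the 24 libraries as they are. By deviations this median was 0.61 for Adra1d, 0.46 for P2rx1, 0.44 for Chrm2, 0.01 for Nos1, -0.03 for Chrm3 and -0.16 for Adra1b. Saline replicate 8 at 3d was lowest in both Kcnma1 and the summed markers, and its part in these values was not tested. Nos1 deviations were most like Sugt1 (0.80), LOC100912427 (0.79) and AABR07012583.2 (0.77). Chrm3 was most like Pigs (0.87), Aldh3a2 (0.87) and Pskh1 (0.86), and by deviations like Pik3r4 (0.83), Aldh3a2 (0.77) and Sphk2 (0.77). Chrm2 was most like Enpp2 (0.87), Nlgn1 (0.84) and Myom3 (0.82), P2rx1 like Prkag2 (0.83), Cela1 (0.80) and Upk2 (0.77), Adra1d like Tmem132e (0.79), Dact3 (0.77) and Yif1a (0.71), and Adra1b like Smim7 (0.72), Tom1 (0.69) and Ufsp1 (0.68). Between members, Nos1 and Kcnma1 had an r of 0.79 and Nos1 and Chrm3 of -0.86, and for deviations from the group means these were 0.34 and -0.61. The libraries behind these values share groups and differ in depth.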

How the data were processed

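Urethral RNA was sequenced with QuantSeq 3ʹ mRNA libraries. The authors used fastq-mcf for trimming, HISAT2 for alignment to Rnor6.0, dropped reads with multiple positions, counted the rest with HT-seq Count and scaled the counts with DESeq2. The deposited signal is a normalized gene count, and whole reads were recovered for 100% of its values (tolerance 0.01 reads). Strand handling in the counting is not given in the sources used here, so antisense overlap could not be separated. Each sample is a urethra, and p-values measure the spread between these samples.

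Log2(normalized count + 1) was fitted with limma 3.58.1 in R 4.3.3 (eBayes with a trend, two-sided, Benjamini-Hochberg) over the 16287 genes with a mean of at least 2, with the 6 groups in 1 fit. The 12 samples of 7d were fitted apart for recovery. DESeq2 1.42.0 and edgeR 4.0.16 (quasi-likelihood, TMM) were run on the recovered reads. For fold bounds, libraries at 0 were set at 3 reads each before averaging over the group; where no library had over 3 reads, summed reads were compared with an exact binomial interval. The intervals cover counting error only, and the fold bounds cover only the libraries at 0. Other alternatives were a pseudocount of 5, other filters, scaling to the same total, only the groups compared, adjusted p alone, leaving out libraries and the replicate block. Tests were checked on simulated data with less spread than several members show and without libraries that stand apart. That check thus does not cover such genes. Members and gene lists were chosen with earlier results of these data known. From each pathway list the 2 genes with the highest mean and up to 4 called between treatments were named, except 1 that is not reported here, from marker lists those a result turned on, chosen after their values were seen, and for each member with a mean of at least 20 normalized counts the 3 genes most like it among those with a mean of at least 50.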

Additional observations from a re-analysis of the deposited data

Results flagged for a closer look

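Of 38 groups of 4 libraries examined, 3 held a library whose gap to the nearest of the others over the range of the group exceeded Dixon's critical value. Chance gives about 1 in 20 such groups for normally distributed values. Counts with many zeros are not so distributed, so the number flagged cannot be judged against that rate. In MABs-allo-VEGF at 3d, replicate 4 held 209.3 normalized counts of Adra1d, a gap of 0.855 of the range. In saline at 3d, replicate 8 held 35.28 of Adrb3, a gap of 0.899. In saline at 3d, replicate 6 held 51.65 of Nos1 against 0 in the other 3, a gap of 1, which any value above 0 would give.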

How the results depend on the processing

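The calls in MABs-allo against saline at 3d numbered 3 of 8, and fell to 0 when only the groups compared were fitted. For MABs-allo-VEGF against saline at 3d the 0 calls became 1 with a pseudocount of 5 and 3 without the 2 libraries that stood apart. For saline between days the 0 became 1 with DESeq2 and 1 with edgeR (P2rx1). For MABs-allo-VEGF between days the 1 became 3 with DESeq2, 3 with edgeR, 3 without the 2 libraries and 2 with only the groups compared. The change of treatment effect between days went from 0 to 2 calls for MABs-allo and from 0 to 1 for MABs-allo-VEGF without the 2 libraries. Over all 16287 genes, the calls in MABs-allo against saline at 3d went from 1997 to 11. Those in MABs-allo-VEGF went from 5 to 181 and 2214, in the order above. For saline between days 520 became 1386 and 988. For MABs-allo-VEGF between days 2497 became 2832, 2599, 3315 and 2038. The change of treatment effect went from 0 to 579 and 585.

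Leaving out 1 library at a time gave 2 to 3 calls for MABs-allo against saline at 3d, and 2 without saline replicate 8, where Chrm3 was lost. It gave 0 to 2 for MABs-allo-VEGF against saline at 3d, with Nos1 and Kcnma1 called without saline replicate 6 or without MABs-allo-VEGF replicate 4. It gave 0 to 1 for saline between days (Kcnma1 without replicate 8 of 3d, P2rx1 without replicate 1 of 7d), and 1 to 3 for MABs-allo-VEGF between days (2 without replicate 2 and 3 without replicate 4 of 3d). It gave 3 to 6 for MABs-allo between days, with 6 without MABs-allo replicate 9 at 7d (3719 of all genes called, beside 3751). Chrm2 was lost in 5 of the 8 fits. For the change of the MABs-allo effect between days leaving out 1 library gave 0 to 1, with Nos1 called without saline replicate 6 at 3d. Calls over all 16287 genes moved in these fits too. For MABs-allo-VEGF against saline at 3d they were 1112 without saline replicate 6 and 1258 without MABs-allo-VEGF replicate 4, beside 5. For MABs-allo they were 369 without saline replicate 8, beside 1997. For saline between days they were 1281 and 466 in the fits named, beside 520. For MABs-allo-VEGF between days they were 1744 and 3216, beside 2497. For the change of the MABs-allo effect they were 128, beside 0. The cause of these changes was not tested.

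Single genes were followed under alternatives only for the 23 differences with an unadjusted limma p below 0.05 in the main fit. That choice makes a change of direction unlikely. The alternatives were another pseudocount, DESeq2, edgeR and fits that left out libraries. The fit of only the groups compared, where the MABs-allo calls against saline were lost, was not among them. Of the 309 values so obtained, 278 kept their direction and side of the threshold, 6 lost and 25 gained a call, and 0 changed direction. Scaling to the same total moved the median of all genes to -0.19 in MABs-allo and -0.18 in MABs-allo-VEGF against saline at 3d, from 0.07 and 0.04.

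At 3d, samples of both cell treatments that share a number correlated at 0.22, 0.15, 0.07 and 0.25 in their deviations from the group means. Replicates 1, 2 and 4 of MABs-allo-VEGF correlated best with the same number in MABs-allo, and replicate 3 with replicate 1 (0.20). Whether the numbers mark pairs is not settled, and the main fit took none. With the replicate number as a block, 0 of 8 members were called between these groups, as without it. Depth limits Adra1a, Adrb3, Chrm2 and Nos1, where a library with 0 reads allows up to 3.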
